A study of Mus musculus with 13 samples.

Results

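The genes described here encode the subunits of the proteasome in mouse, measured by RNA-sequencing in aortic endothelial cells (ECs) and whole hearts of mice with and without heme oxygenase 2 (Hmox2). They were chosen by symbol: protein-coding genes of the GENCODE annotation whose name starts with Psma, Psmb, Psmc or Psmd followed by a digit. Of 21770 protein-coding genes, 40 met the rule, and all 40 had at least 1 transcript in the data. The Psma genes (8) form the outer alpha rings of the core particle, 8 of the Psmb genes its inner beta rings, and 3 Psmb genes (Psmb8, Psmb9 and Psmb10) the immunoproteasome, which is kept apart here. The 6 Psmc ATPases and 11 Psmd genes are subunits of the regulatory particle. A further 3 (Psmd5, Psmd9 and Psmd10) are assembly chaperones that leave the finished particle, and Psmc3ip is a meiotic recombination protein that shares only the prefix of its name.

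The libraries were made from polyadenylated RNA of mice kept in room air: aortic ECs from 3 Hmox2+/+ animals (named EC WT 1 to 3 here) and 3 Hmox2-/- mice (EC KO 1 to 3), and whole hearts of 4 Hmox2+/+ mice (heart WT 1 to 4) and 3 Hmox2-/- mice (heart KO 1 to 3). The deletion in the Hmox2-/- mice was not confined to ECs or heart, so a change in either cannot be assigned to loss of the gene in those cells. The controls were wildtype littermates, and the sequenced mice were young according to the study, with no exact age tied to the libraries and no sex given in the sources used here. EC RNA was obtained by flushing the aortic lumen with a lysis reagent, and heart RNA from frozen whole tissue with another kit. The series describes the ECs and hearts as matched, but the labels do not tie an EC library to a heart library, and p-values measure the spread between the libraries of a group.

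The proteasome degrades proteins that are tagged with ubiquitin. The regulatory particle binds the tagged protein, removes the ubiquitin and unfolds the chain with its ATPases, and the core particle cuts it at the active sites of Psmb5 (chymotrypsin-like), Psmb6 (caspase-like) and Psmb7 (trypsin-like). In cells exposed to interferon and in many leukocytes, Psmb8, Psmb9 and Psmb10 take the places of Psmb5, Psmb6 and Psmb7, which changes the peptides available to MHC class I. In heart muscle the ubiquitin and proteasome system turns over sarcomere proteins.

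The sequences upstream of 5 of the genes are shown here because they are the members with the highest fold changes in Hmox2-/- hearts (Psma7, Psmb10, Psmb5 and Psmb3) and the member that changed in both tissues (Psmd8). Each is the 250 bases before the RefSeq start of the gene (GRCm38.p6), written 5′ to 3′ on the strand of the gene. Capitals mark 1 of 3 motifs searched on both strands: CCAAT, the box bound by nuclear factor Y; TGACNNNGC, a core of antioxidant response elements of the kind bound by Nfe2l1, a known activator of proteasome genes; and GAAA followed after 2 bases by a further GAAA, the core of interferon-stimulated response elements.
Psma7, chr2:180042465-180042714, minus strand: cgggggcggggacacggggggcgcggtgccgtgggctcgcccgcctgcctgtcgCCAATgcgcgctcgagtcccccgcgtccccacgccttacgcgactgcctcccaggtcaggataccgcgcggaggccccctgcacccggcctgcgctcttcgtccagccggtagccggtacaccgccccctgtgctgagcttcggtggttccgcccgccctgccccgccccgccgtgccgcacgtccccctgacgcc
Psmb10, chr8:105938393-105938642, minus strand: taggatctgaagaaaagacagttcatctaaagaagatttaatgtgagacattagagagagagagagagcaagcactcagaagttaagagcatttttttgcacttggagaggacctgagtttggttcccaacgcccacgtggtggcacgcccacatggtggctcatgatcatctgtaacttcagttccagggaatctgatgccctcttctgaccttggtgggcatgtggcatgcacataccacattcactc
Psmb5, chr14:54617996-54618245, minus strand: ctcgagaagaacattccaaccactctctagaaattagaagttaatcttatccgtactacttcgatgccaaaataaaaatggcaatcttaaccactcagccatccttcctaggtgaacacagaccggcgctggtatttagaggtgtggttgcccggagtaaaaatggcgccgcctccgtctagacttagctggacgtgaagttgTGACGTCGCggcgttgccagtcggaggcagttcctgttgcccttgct
Psmb3, chr11:97703184-97703433, plus strand: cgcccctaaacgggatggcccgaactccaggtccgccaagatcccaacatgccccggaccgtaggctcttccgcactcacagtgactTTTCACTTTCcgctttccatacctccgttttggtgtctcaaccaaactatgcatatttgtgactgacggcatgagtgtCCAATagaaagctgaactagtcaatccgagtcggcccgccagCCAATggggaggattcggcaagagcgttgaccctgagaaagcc
Psmd8, chr7:29180674-29180923, minus strand: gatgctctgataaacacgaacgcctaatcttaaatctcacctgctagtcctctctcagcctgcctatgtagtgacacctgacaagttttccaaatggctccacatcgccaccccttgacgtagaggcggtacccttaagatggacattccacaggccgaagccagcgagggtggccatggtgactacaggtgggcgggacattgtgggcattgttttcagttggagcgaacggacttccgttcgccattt
Of the 5 windows, CCAAT was found in those of Psma7 and Psmb3, TGACNNNGC in that of Psmb5, and the interferon element, as its reverse complement, in that of Psmb3. Of the 40 genes, 33 had such a window in RefSeq (35 windows in all). CCAAT was present in 14 of the 35 windows (40%) and in 33.9% of all 32851 promoter windows of that length. TGACNNNGC was present in 5 (14.3%, against 10.2% of all windows) and the interferon element in 3 (8.57%, against 2.98%). Of the windows of Psmb8, Psmb9 and Psmb10, 1 held CCAAT (that of Psmb9) and none of the 3 held either of the other 2 motifs. Psmb9 and Psmb8 both lie in the MHC region, at chr17:34182030-34187330 and chr17:34198195-34201454, and Psmb5 and Psmb11 lie at chr14:54614120-54617995 and chr14:54625310-54629556.

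Hmox2 itself was measured at 76.2, 66.1 and 63.9 counts scaled to library size (CPM) in EC WT and at 12.6, 13.3 and 14.8 in EC KO, and at 40.7, 42.5, 37.3 and 38.8 CPM in heart WT and 8.90, 7.53 and 7.81 in heart KO. CPM are read counts relative to library sizes scaled by the trimmed mean of M-values (TMM). The groups did not overlap in either tissue (log2 fold change -2.34 ± 0.13 in ECs and -2.30 ± 0.11 in hearts, SE). In TPM (transcripts scaled for length and library) the difference was smaller. Means were 57.7 in EC WT and 25.0 in EC KO, and 29.35 in heart WT and 17.2 in heart KO. Of its sequence words, 73.4% also occur in another gene, mainly the neighbouring Cdip1, and reads of the 2 genes cannot be fully told apart. Total estimated counts were 26067147 to 31619776 in 12 libraries and 7268626 in heart WT 1, which makes low values of that library less precise. Mitochondrially encoded genes took 37.6% to 44.3% of counts in heart WT and 22.5% to 27.2% in heart KO. Ddx3y, a Y-linked gene, was at 0.883 and 0.390 TPM in EC KO 2 and 3 and at 11.5 to 22.5 in the other libraries. No heart KO library was thus like EC KO 2 or 3 in this gene, and no EC WT library was. A difference in sex cannot be fully told apart from genotype in ECs, nor in comparisons of the genotype effect between tissues.

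In hearts, proteasome genes as a group were higher in Hmox2-/- mice. Of 39 members tested, 23 were higher and 1 was lower at an adjusted p of at most 0.05 (edgeR's quasi-likelihood test with Benjamini-Hochberg adjustment over 13816 genes), while 17.2% of all genes tested were higher and 16.2% lower. The median log2 fold change of the 39 was 0.32, against -0.01 over all genes, and 36 of the 39 were above 0. The changes were small: the 23 lay between 0.26 and 0.80 on the log2 scale, and the single member past a 2-fold change, Psma8, was lower (2.66% of all genes were higher and 4.05% lower by that criterion). WT and KO libraries did not overlap in 26 members, and in 40.4% of all genes. Every member higher by the test kept a positive log2 fold change when transcript length and GC content were fitted as an offset, but with that offset 7 members were called higher in place of 23, where 14.5% of all genes were higher and 10.9% lower (described below). In bulk tissue, fewer cells of a type and less RNA per cell cannot be told apart.

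The core particle accounted for 14 of these 23 calls, of which 4 were also made with the length and GC offset. In the alpha ring, which gates the entrance to the core, all 7 genes other than Psma8 were higher, by 0.26 to 0.80 (median 0.32, log2). Several of these calls were weak: that of Psma3 held in 7 of 21 alternative settings, that of Psma5 in 8 and that of Psma4 in 13, and with the offset the 3 were at 0.11, 0.013 and 0.044 without passing the test. With the replicate number as a block 2 of the 7 were called (Psma6 and Psma7). Psma7 had the highest fold change of all members. It was at 58.4, 54.5, 62.4 and 69.4 CPM in heart WT 1 to 4 and at 139, 99.6 and 82.8 in heart KO 1 to 3, which gave 0.80 ± 0.16 on the log2 scale (fold change with its SE; adjusted p = 0.00386, edgeR). The lowest KO library was above the highest WT library, and the KO libraries were spread more widely than the WT libraries. In the beta ring the 7 genes other than Psmb11 were all higher, by 0.33 to 0.72 (median 0.53). Psmb3, a beta subunit without an active site, was at 44.9, 41.1, 38.3 and 45.7 CPM in heart WT and 90.8, 65.8 and 52.0 in heart KO (0.71 ± 0.16, adjusted p = 0.00728). All 3 KO libraries were above the 4 WT libraries, heart KO 1 by the widest margin.

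The 3 constitutive catalytic genes were each higher, and none of the 3 was called with the length and GC offset (0.24 for Psmb5, adjusted p = 0.088; 0.045 for Psmb6, adjusted p = 0.686; 0.040 for Psmb7, adjusted p = 0.701). Psmb5, the chymotrypsin-like subunit and target of proteasome inhibitor drugs, was at 24.7, 24.4, 27.4 and 26.7 CPM in heart WT and 55.6, 38.9 and 33.6 in heart KO (0.72 ± 0.15, adjusted p = 0.00535). Psmb6, the caspase-like subunit, was at 72.7, 72.0, 73.4 and 69.2 CPM in heart WT and 127, 104 and 84.7 in heart KO (0.55 ± 0.12, adjusted p = 0.00724). Psmb7, the trypsin-like subunit, was at 93.5, 100, 107 and 96.6 CPM in heart WT and 137, 123 and 115 in heart KO (0.33 ± 0.10, adjusted p = 0.0228). The groups did not overlap in any of the 3, and heart KO 1 was the highest library in each. Psmb5 shares 53.2% of its sequence words with other genes, mainly a processed pseudogene. With the counts of such pseudogenes added to the members, 23 members were again called higher.

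In the immunoproteasome, 2 of the 3 genes were higher. Psmb10, which replaces Psmb7, was at 22.8, 26.1, 18.7 and 21.1 CPM in heart WT and 50.2, 34.9 and 28.3 in heart KO (0.77 ± 0.18, adjusted p = 0.00866). Psmb8, which replaces Psmb5, was at 6.69, 7.17, 6.82 and 5.24 CPM in heart WT and 12.6, 9.26 and 7.60 in heart KO (0.60 ± 0.19, adjusted p = 0.0278). Psmb9, which replaces Psmb6, was at 3.42, 5.12, 4.72 and 2.62 CPM in heart WT and 8.14, 5.23 and 4.07 in heart KO (0.53 ± 0.27, adjusted p = 0.158). WT and KO libraries were apart for Psmb10 and Psmb8 and overlapped for Psmb9. The call of Psmb8 was lost in 10 of 21 alternative settings, and that of Psmb10 in 1. The summed TPM of 10 leukocyte markers was 108 to 176 in heart WT and 195 to 288 in heart KO. TPM are shares of all RNA measured, and mitochondrially encoded RNA took a smaller share in heart KO. On TMM-scaled counts the median log2 fold change of the 8 markers tested was 0.37, with 3 higher (Lyz2, Coro1a and Cd68) and 1 lower (Cd74). Lymphocyte markers were near 0 in hearts (Cd3e and Cd79a did not pass the filter on low counts), and Ptprc, carried by nearly all leukocytes, had a log2 fold change of -0.61 (adjusted p = 0.0526). Whether a different number of leukocytes accounts for any of the difference in the 3 genes was not tested.

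In the regulatory particle fewer genes were called. Of its 17 genes in this set, 7 were higher (2 of 6 ATPases and 5 of 11 others), where 17.2% of all genes were higher. Their median log2 fold change was 0.21 over the 17, against 0.43 for the 14 core genes other than Psma8 and Psmb11. With the length and GC offset only Psmd8 of the 17 was called, where 14.5% of all genes were higher, and the 2 medians were 0.07 and 0.12. With the replicate number as a block 3 were called (Psmc4, Psmd8 and Psmd13). The ATPases were Psmc4 (0.50 and adjusted p = 0.0108) and Psmc3 (0.43 and adjusted p = 0.0193). Psmd8, a lid subunit, was at 59.3, 57.8, 59.0 and 55.5 CPM in heart WT and 93.3, 86.2 and 76.7 in heart KO (0.56 ± 0.09, adjusted p = 0.00174), with no overlap and little spread in either group. Of the other subunits, Psmd13, Psmd4 (a ubiquitin receptor), Psmd7 and Psmd12 were higher by 0.27 to 0.43. The large scaffold subunits Psmd1 and Psmd2 were at -0.03 ± 0.09 and 0.01 ± 0.10, with 95% intervals of -0.25 to 0.20 and -0.25 to 0.26. Psmd14, the enzyme that removes ubiquitin from the substrate, was at 0.25 and adjusted p = 0.0769. None of the 3 chaperones was called by edgeR without the offset (median 0.27, 1 at an unadjusted p under 0.05), and Psmc3ip was at 0.69 and adjusted p = 0.0792. With the offset the chaperone Psmd5 was called (0.31 and adjusted p = 0.0431).

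Psma8, the alpha subunit of the testis form of the proteasome, was the only member that was lower in Hmox2-/- hearts, and it was barely expressed. It was at 2.68, 1.52, 0.80 and 1.24 CPM in heart WT (44 estimated counts at most in a library) and 0.353, 0.242 and 0.329 in heart KO (8 to 12 counts). The groups did not overlap (-2.19 ± 0.44, adjusted p = 0.00414), and the highest value came from the shallow library heart WT 1. The call held in each of 21 alternative settings. Psmb11, the thymus-specific beta subunit, did not pass the filter in hearts and was at 0.0407 ± 0.0379 TPM (SD, n = 3) in heart KO and 0.0607 ± 0.0386 (n = 4) in heart WT.

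**Figure D1:**
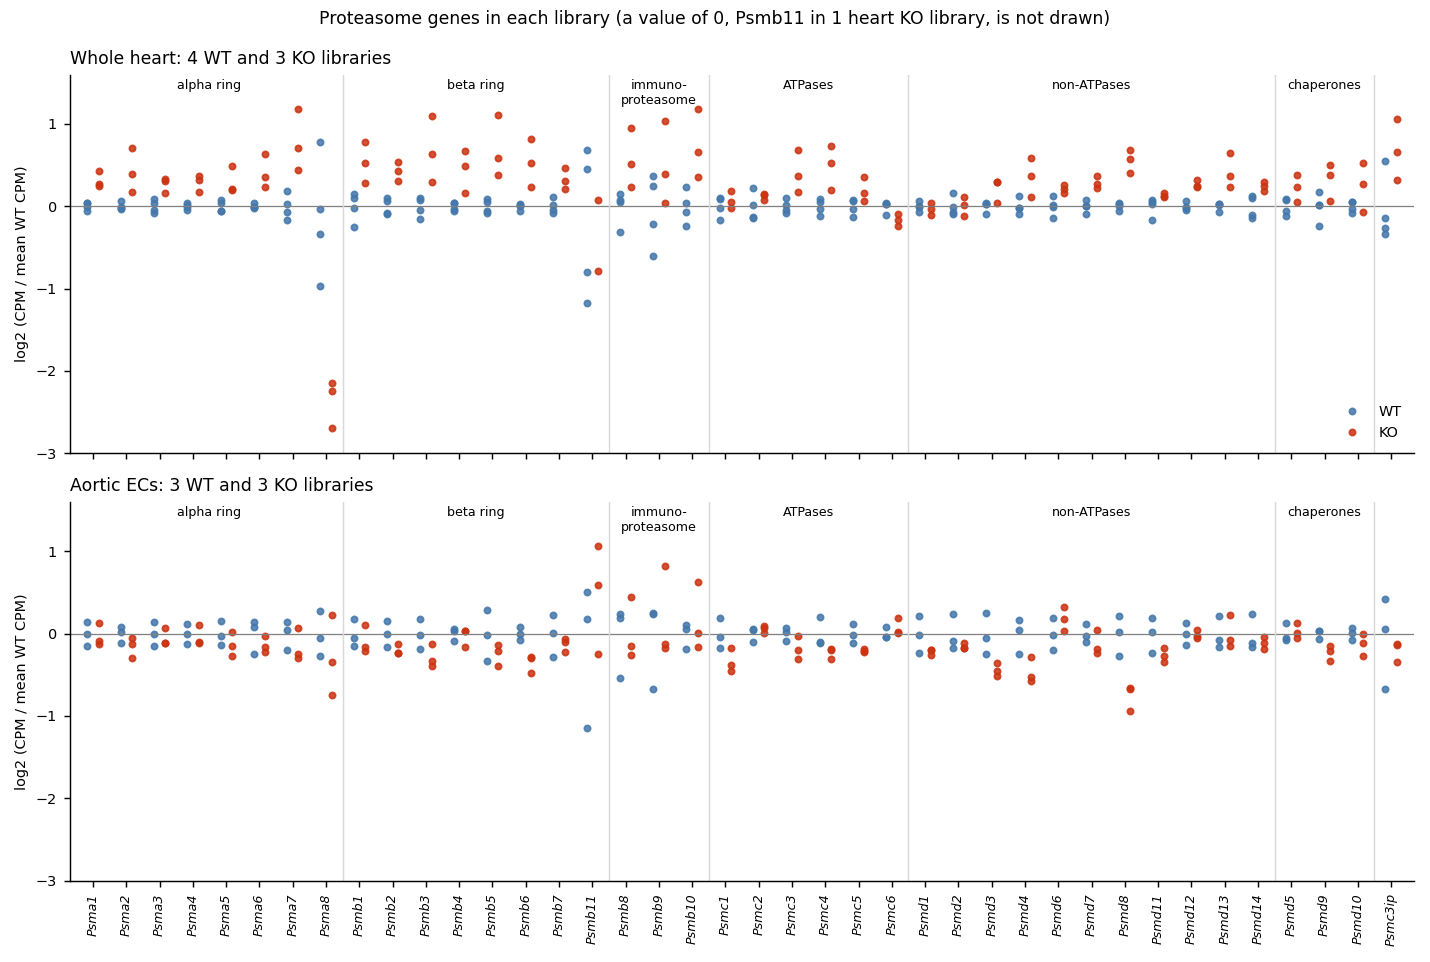
Each point is 1 library, as log2 of its CPM over the mean CPM of the WT libraries of that tissue, for the 40 genes grouped by role (blue, WT; red, KO; top, heart; bottom, ECs; a value of 0 is not drawn). In hearts the KO points of the core genes sit above the WT points, with Psma8 far below, and in ECs the groups overlap for most genes, with Psmd8 the clearest exception.

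Across members, single libraries ranked alike. Among the heart KO libraries, heart KO 1 was the highest for 34 of the 39 members tested and heart KO 3 the lowest for 32. Without heart KO 2, 13 members were called higher, without heart WT 4, 14, and without heart WT 1, 15. Without any other single heart library the count was 16 to 27. Marker sums of other cell types in TPM were also higher in heart KO. That of 4 erythroid markers was 210 to 470 in heart WT and 1508 to 2232 in heart KO (3 of 3 tested higher). That of 10 endothelial markers was 152 to 221 and 252 to 274 (3 higher, 1 lower), and that of 10 cardiomyocyte markers 32413 to 42018 and 52500 to 62433 (4 higher, 2 lower). That of 5 fibroblast markers was 173 to 211 and 259 to 322 (0 higher, 1 lower). TPM are shares of all RNA measured, and mitochondrially encoded RNA took a smaller share in heart KO. On TMM-scaled counts the median log2 fold changes of the 4 lists were 1.90, 0.12, 0.15 and -0.03. The part of these cell types in the proteasome result was not tested.

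The core genes have short transcripts, and in hearts short transcripts were higher in KO across all genes. Over the 13816 genes tested, the median log2 fold change was 0.41 in the 20% of genes with the shortest transcripts (median length 1070.1 bases), 0.16 in the next 20% (1819 bases) and -0.36 in the 20% with the longest. The 14 core genes had a median length of 1077 bases and a median log2 fold change of 0.43, and the 17 regulatory genes had 1579 bases and 0.21. Both medians thus lay close to those of all genes of like length. With an offset for length and GC content the median of the 39 members was 0.12, against 0.03 over all genes, and 7 members were higher: Psma1, Psma2, Psma7, Psmb1, Psmb10, Psmd5 and Psmd8. By the same fit 14.5% of all genes were higher and 10.9% lower. Psma2 (0.60) and Psmb1 (0.49) then had the highest fold changes, followed by Psmb10 (0.38) and Psma7 (0.35), while Psmb3 was at 0.18 (adjusted p = 0.253). For Psma2 the value with the offset was the highest of 21 alternative settings (0.41 with the replicate number as a block). The medians of the 14 core genes and the 17 regulatory genes were then 0.12 and 0.07, with 4 and 1 called. Psma8 stayed lower (-2.31). The source of the trend over length was not tested, and the offset changed length and GC content together.

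**Figure D2:**
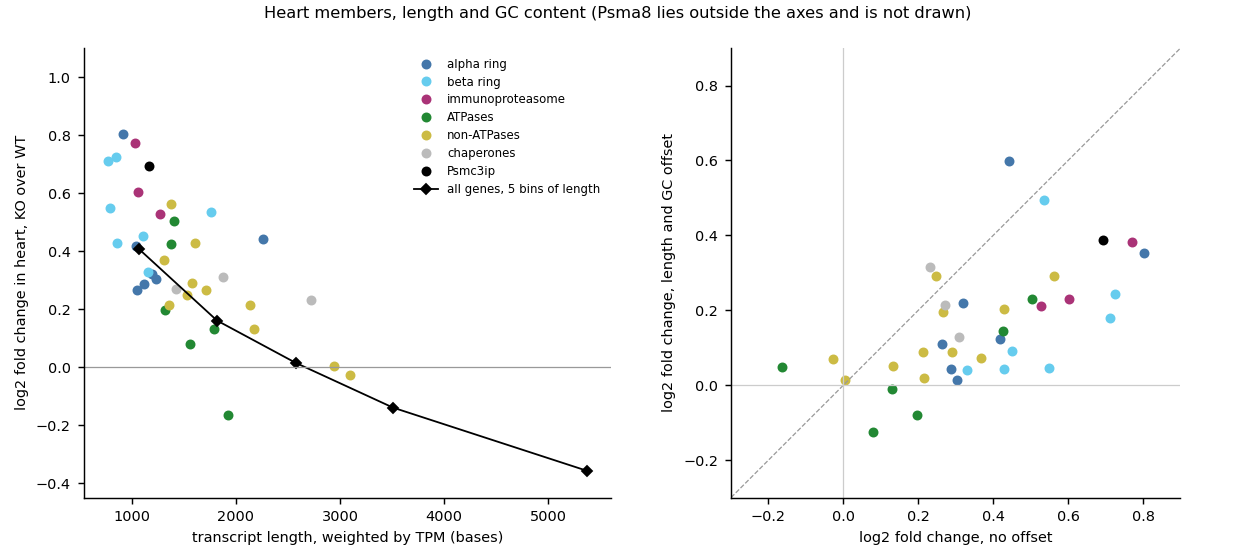
Left, log2 fold change in hearts (KO over WT) of each tested member against its transcript length in bases, coloured by role, with the medians of all genes in 5 bins of length as a black line. Right, the log2 fold change without (x) and with (y) an offset for length and GC content. Most members lie below the dashed line of equality. With the offset Psma2 is at 0.60, above that line, and Psmb1 at 0.49.

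In ECs, proteasome genes were nearly level between genotypes. Of the 40 members, all tested, none was higher and 1 was lower (edgeR, 15301 genes), where 10% of all genes were higher and 8.06% lower. With DESeq2 none was higher and 4 were lower, and 5 members had an unadjusted p under 0.05 with edgeR. The median log2 fold change was -0.13, against -0.02 over all genes, with 31 members below 0 and 9 above. WT and KO libraries did not overlap in 7 members, and in 40.7% of all genes. EC WT 2 was the highest of the WT libraries in 33 of 40 members and EC WT 3 the lowest in 31.

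The member that was lower in ECs was Psmd8. It was at 227, 197 and 162 CPM in EC WT 1 to 3 and at 124, 123 and 102 in EC KO 1 to 3, which gave -0.75 ± 0.16 on the log2 scale (adjusted p = 0.0210). All KO libraries were below all WT libraries. The call did not survive leaving out EC WT 1, EC WT 2, EC KO 2 or EC KO 3 (adjusted p 0.0507 to 0.089), and without both libraries low in Ddx3y the log2 fold change was -0.65 (adjusted p = 0.333). Other regulatory subunits had lower means without passing the test, Psmd4 (-0.45 and adjusted p = 0.0664) and Psmd3 (-0.44 and adjusted p = 0.0735) among them. With the offset for length and GC content 4 members were lower, Psmd8 (-0.60), Psma2 (-0.73), Psmd14 (-0.72) and Psmc6 (-1.10). By the same fit 9.05% of all genes were lower and 8.57% higher. The first of these was the only one that was also called without the offset, where Psma2 was at -0.16, Psmd14 at -0.11 and Psmc6, on the other side of 0, at 0.08 (adjusted p = 0.634).

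None of the core genes was called in ECs, and the catalytic genes differed little. Psmb6 was at 127, 120.2 and 114 CPM in EC WT and 98.4, 98.8 and 86.7 in EC KO (-0.35 and adjusted p = 0.0657), without overlap. Psmb5 was at 36.8, 45.4 and 29.7 CPM in EC WT and 32.2, 33.9 and 28.3 in EC KO (-0.24 and adjusted p = 0.334), and Psmb7 at 104, 121 and 84.8 and 96.6, 99.2 and 88.4 (-0.13 and adjusted p = 0.567). Both overlapped between genotypes.

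The immunoproteasome genes had fold changes above 0 in ECs, none past the test. Psmb8 was at 39.9, 66.1 and 68.4 CPM in EC WT and 52.3, 78.9 and 48.6 in EC KO, with a log2 fold change of 0.04 and a 95% interval of -0.67 to 0.75. Psmb9 was at 15.5, 29.5 and 29.2 CPM in EC WT and 22.6, 43.9 and 21.8 in EC KO (0.25, interval -0.68 to 1.18). Psmb10 was at 39.6, 47.0 and 48.5 CPM in EC WT and 45.3, 69.4 and 40.2 in EC KO (0.20, interval -0.39 to 0.78). EC KO 2 was the highest library for all 3 and EC WT 1 the lowest, so the spread within genotypes exceeded the difference between them. Without EC KO 2 the log2 fold changes were -0.20, -0.15 and -0.07, each below 0.

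**Figure D3:**
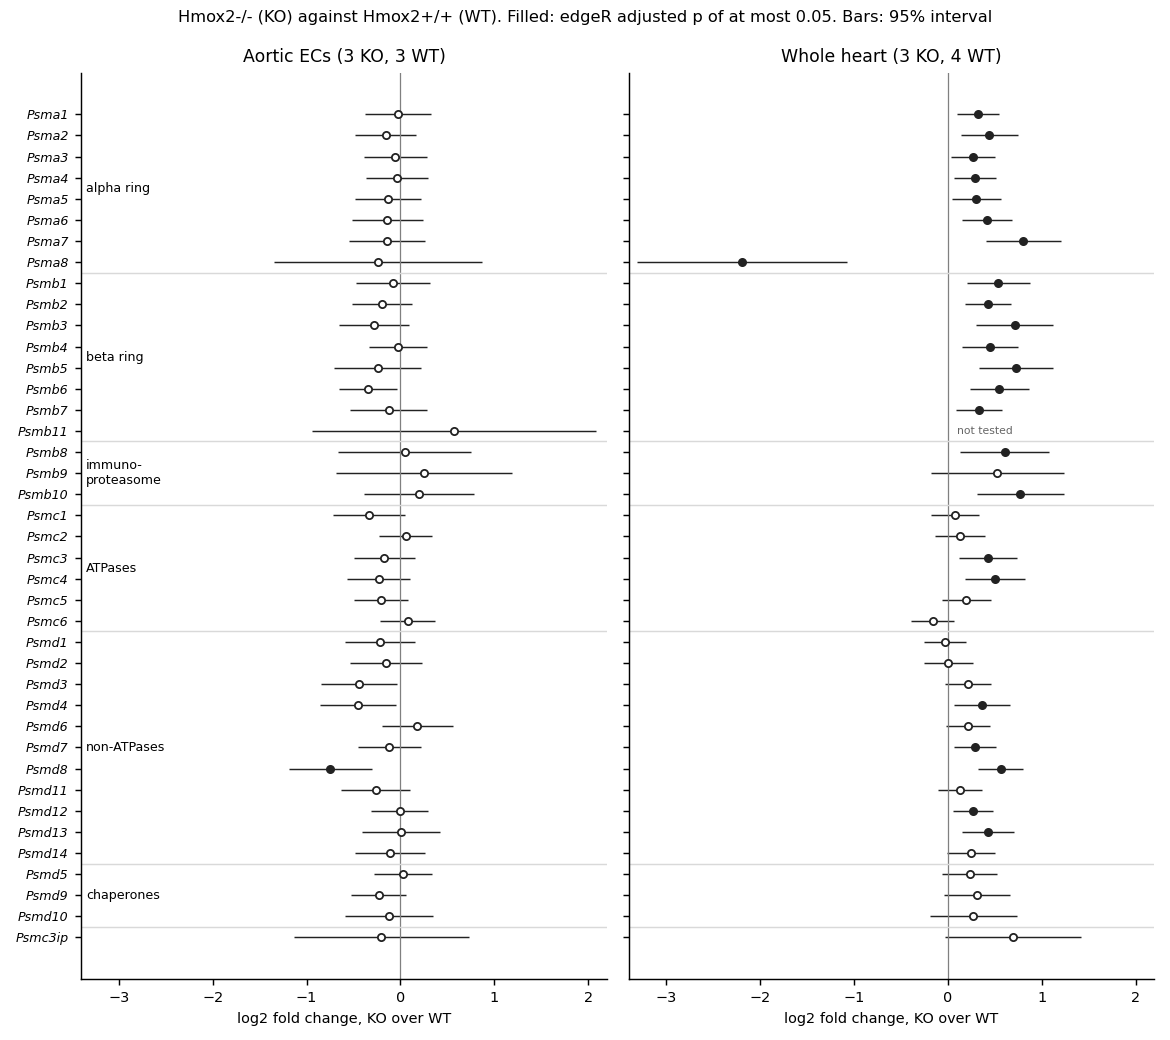
Log2 fold change of each gene (KO over WT) in ECs (left) and hearts (right) with its 95% interval from edgeR; filled points have an adjusted p of at most 0.05. In hearts the points of the alpha, beta and immunoproteasome genes lie to the right of 0 except Psma8, and in ECs only that of Psmd8 is filled.

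EC preparations also held RNA of other cells. The endothelial markers Pecam1 and Cdh5 were present in all EC libraries, and the summed TPM of 10 endothelial markers was 908 to 1744 in EC WT and 1930 to 2122 in EC KO. That of 10 cardiomyocyte markers was 108 to 671 in EC WT and 5.87 to 9.17 in EC KO (9 of 10 lower), that of 5 smooth muscle markers 1941 to 3122 and 589 to 2235 (2 lower), that of 5 fibroblast markers 933 to 1906 and 2117 to 3016 (3 higher) and that of 10 leukocyte markers 378 to 837 and 612 to 951 (3 higher). The sum of 5 adipocyte markers was the largest, at 8766 to 13499 in EC WT and 6591 to 8370 in EC KO (0 higher, 0 lower). That of 4 erythroid markers was 2784 to 5648 and 2345 to 5280 (0 higher, 0 lower). The part of these other cells in the values of Psmd8 or of the immunoproteasome genes in ECs was not tested.

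The genotype effect was then compared between tissues in a fit of all 13 libraries, as a tissue by genotype interaction over 15938 genes. It was higher in hearts than in ECs for 20 members and lower for 1, Psma8 (-1.97 and adjusted p = 0.0300), while 16.2% of all genes were called higher and 12.7% lower. The median interaction of the 40 was 0.47, against 0.03 over all genes. Psmd8, lower in EC KO and higher in heart KO, had the strongest positive interaction in this fit (1.35 ± 0.18, adjusted p = 2.8e-04), followed by Psmb3 (1.03 and adjusted p = 0.00528), Psmb5 (1.01 and adjusted p = 0.00732), Psma7 (0.99 and adjusted p = 0.00731) and Psmb6 (0.93 and adjusted p = 0.00195). By role the calls fell on 4 of 8 alpha genes (beside Psma8), 7 of 8 beta genes, 3 of 6 ATPases, 5 of 11 other regulatory subunits and 1 of 3 chaperones. None of the 3 immunoproteasome genes was called (edgeR, and none at an unadjusted p under 0.05), with log2 interactions of 0.60 for Psmb8, 0.31 for Psmb9 and 0.61 for Psmb10. With the length and GC offset 6 members were higher in hearts, while 13.2% of all genes were called higher and 8.31% lower: Psma2 (1.35), Psmc6 (1.13), Psmd14 (1.01), Psmd8 (0.91), Psmb1 (0.75) and Psma1 (0.58). Psma2, Psmc6 and Psmd14 have the lowest GC content of the members. Psmc6 was at -0.20 without the offset (adjusted p = 0.272), so that its direction turned. Of the 20 called without it, Psma2, Psmb1 and Psmd8 were among the 6. With the replicate number as a block 17 were higher and none lower.

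Among Hmox2+/+ mice, the members that differed most between the tissues were 2 of the 3 immunoproteasome genes, Psmb8 and Psmb9. TPM, which accounts for transcript length, was used to compare genes, and CPM to test tissues. Psmb8 was at 40.7, 83.5 and 93.5 TPM in EC WT and at 7.25, 8.69, 6.92 and 4.85 in heart WT, Psmb9 at 13.3, 31.2 and 30.6 and 4.80, 4.91, 3.91 and 2.01, and Psmb10 at 47.7, 68.0 and 75.7 and 25.6, 26.8, 16.9 and 21.3. The tissues did not overlap in TPM for any of the 3. On the TMM-scaled counts the log2 difference of heart WT from EC WT was -2.46 ± 0.20 for Psmb8 (adjusted p = 2.8e-06), -1.90 ± 0.28 for Psmb9 (adjusted p = 2.0e-04) and -0.31 ± 0.13 for Psmb10 (adjusted p = 0.0599, edgeR, 14777 genes). The first 2 were called in each of 19 alternative settings, and Psmb10 turned to 0.25 with the length and GC offset. The EC preparations held more leukocyte RNA (378 to 837 TPM over 10 markers in EC WT, 108 to 176 in heart WT). They also held more adipocyte RNA (8766 to 13499 TPM over 5 markers in EC WT, 272 to 302 in heart WT). The part of these cells in the difference between tissues was not tested.

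Over all 40 members, 16 were higher in heart WT than in EC WT and 6 lower, where 32.5% of all genes were higher and 35.4% lower. The higher ones included 13 of the 17 regulatory genes (median 0.60) and 2 of the 14 core genes (median -0.05). Psmd8 was again the exception within the regulatory particle, at a log2 difference of -1.04 ± 0.12 (adjusted p = 2.7e-05), and remained lower in all 19 alternatives. The split depended on the length and GC offset: with it 26 members were higher and 3 lower (Psmb8, Psmb9 and Psmd8), where 36.1% of all genes were higher and 31% lower. Of the 40 members 12 changed direction, among them Psma7 (from -0.07 to 0.60) and Psmb4 (from -0.01 to 0.61), both called with the offset.

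The share of the immunoproteasome among the 6 catalytic genes, from TPM, described the tissue more than the genotype. It was 29.3% ± 5.4 in EC WT (SD, n = 3), 32.6% ± 5.1 in EC KO (n = 3), 12.5% ± 1.6 in heart WT (n = 4) and 14.5% ± 2.1 in heart KO (n = 3). The genotypes overlapped in both tissues and the tissues did not overlap. From protein-coding transcripts alone it was 20.6%, 25.8%, 8.90% and 10.1% in the same order. By pair, Psmb8 made up 53.6% ± 9.0 of Psmb8 and Psmb5 together in EC WT and 58.1% ± 4.6 in EC KO, and 16.7% ± 3.1 in heart WT and 15.5% ± 0.95 in heart KO. The Psmb8 values include a retained-intron transcript, at 27.9 TPM on average in EC WT and 22.3 in EC KO. The most abundant protein-coding Psmb8 transcript was at 38.6 and 36.2. Psmb10 made up 36.4% ± 5.5 and 35.7% ± 5.1 of Psmb10 and Psmb7 in ECs, and 19.6% ± 2.9 in heart WT and 25.8% ± 5.6 in heart KO. Psmb9 stayed a minor part of Psmb9 and Psmb6 everywhere (10.4% ± 3.1, 14% ± 4.3, 3.48% ± 1.0 and 3.19% ± 0.37 in EC WT, EC KO, heart WT and heart KO). These are shares of RNA, with no test, and say nothing of the assembled particles.

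**Figure D4:**
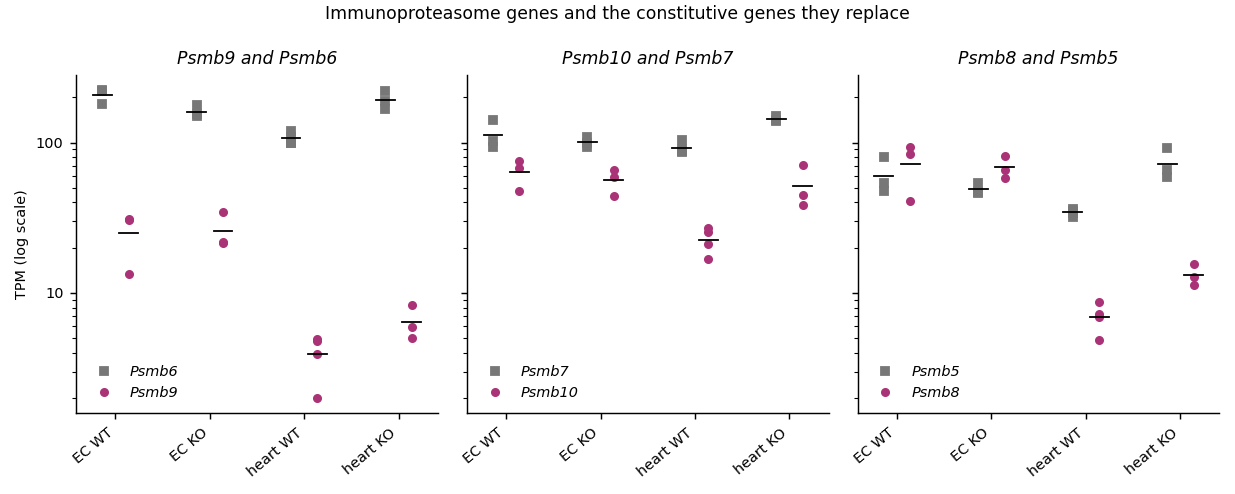
TPM on a log scale of each immunoproteasome gene (circles) and the constitutive gene it replaces (squares), 1 point per library with the mean as a bar. With all transcripts of a gene summed, including those with a retained intron, Psmb8 reaches the level of Psmb5 in ECs. It lies well below Psmb5 in hearts, and Psmb9 lies below Psmb6 in all groups.

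In level, the most abundant member was Psmb6 in EC WT (208 ± 23.3 TPM, SD), EC KO (161 ± 15.3) and heart KO (193 ± 27.0), and Psmc3, an ATPase, in heart WT (114 ± 14.3, with Psmb6 next at 107 ± 9.77, within its spread). The lowest was Psmb11 in all 4 groups, at 0.0407 to 0.267 TPM on average. The summed TPM of the 8 alpha genes was 785 ± 145 in EC WT, 712 ± 118 in EC KO, 377 ± 29 in heart WT and 641 ± 54 in heart KO, and that of the 8 beta genes 909 ± 156, 767 ± 60, 479 ± 43 and 853 ± 99. The ratio of heart KO to heart WT was greater in TPM than in TMM-scaled CPM, beside the lower share of mitochondrially encoded RNA in heart KO. Leaving out the mitochondrially encoded genes left 23 members higher under TMM.

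Other genes of the pathway were read against the same background, in which 17.2% of all genes were higher and 16.2% lower in hearts. In ECs these shares were 10% and 8.06%. In hearts 4 of 6 assembly factors of the core were higher and none lower: Psmg3 (0.72 and adjusted p = 0.00949), Psmg1 (0.69 and adjusted p = 0.00503), Psmg4 (0.59 and adjusted p = 0.0266) and Pomp (0.31 and adjusted p = 0.0353). The alternative activator subunits Psme1 (0.49 and adjusted p = 0.0146) and Psme2 (0.44 and adjusted p = 0.0268), known as interferon-inducible, were higher among 6 activators and inhibitors. Both share over 20% of their sequence words with other genes. Of 13 other subunits, bound proteins and shuttle proteins, outside the symbol rule, 5 were higher. Among them were Sem1 (0.48 and adjusted p = 0.0119) and Adrm1, a ubiquitin receptor (0.43 and adjusted p = 0.0119). Ddi2, the protease that activates Nfe2l1, was lower (-0.63 and adjusted p = 0.0108). Nfe2l1 itself, the activator of proteasome genes, was lower, from 482 ± 15.2 to 359 ± 46.7 CPM (SD; -0.42 and adjusted p = 0.0114), and the other 5 regulators were not called. The ubiquitin genes Rps27a (0.56 and adjusted p = 0.0132) and Ubb (0.35 and adjusted p = 0.0287) were higher, and neither E1 enzyme was called. These fits carried no offset for length and GC content, while short transcripts were higher and long ones lower in heart KO across all genes.

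Ubiquitin ligases of muscle went both ways in hearts, with 3 of 10 higher and 3 lower, where 17.2% of all genes were higher and 16.2% lower. Fbxo32, the atrophy ligase atrogin-1 (-0.42 and adjusted p = 0.0372), and Fbxo30 (-0.42 and adjusted p = 0.0488) were lower, and Trim54 (0.44 and adjusted p = 0.00480) and Asb2 (0.42 and adjusted p = 0.0215) higher. Of 7 genes for Vcp, the ubiquitin-dependent unfoldase, and its cofactors, only Ubxn1 was called (0.58 and adjusted p = 0.00368), and it was lower in ECs (-0.48 and adjusted p = 0.0406). No gene of 8 for class I antigen processing and none of 7 interferon response factors was called in hearts (edgeR, and none at an unadjusted p under 0.05), with medians of -0.13 and -0.07. In ECs, Pdia3 of the class I list was higher (0.65 and adjusted p = 0.0281) and all 8 of its genes had fold changes above 0 (median 0.28). Ubqln2, a shuttle protein, was higher in ECs (0.39 and adjusted p = 0.0494) and Nfyc, a subunit of nuclear factor Y, lower (-0.39 and adjusted p = 0.0470). Trim54 was at 0.855 ± 0.186 CPM in EC WT and 0.0123 ± 0.0212 in EC KO (SD, n = 3 each), together with the cardiomyocyte markers above.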

How the data were processed

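RNA was measured in 13 libraries. The authors pseudoaligned paired reads with Kallisto 0.44.0 (default parameters, no strand, GENCODE M32 index per the methods; the submitters' processing notes name mm10 and GRCh38.p13) and deposited estimated counts per transcript, not normalized between libraries. The deposited TPM values were made by the authors' Kallisto runs from those estimated counts and effective lengths. Here transcripts were matched to GENCODE M39 by stable identifier (115140 of 118489, or 97.2%; the rest held 0.755% to 1.01% of counts and were left out), and counts and TPM were summed per gene. Counts were rounded, filtered (filterByExpr, minimum count 10), scaled by TMM and tested with edgeR 4.0.16 (quasi-likelihood, R 4.3.3) within each tissue over all genes, with an interaction fit over both tissues. Genes were called at 0.05 after Benjamini-Hochberg adjustment.

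The members and gene lists were chosen with earlier results of these data known. Genes were named as follows: Hmox2; the 3 immunoproteasome genes and their 3 counterparts; up to 6 called members per tissue and direction and in the interaction, by size; the highest and lowest by TPM; members below the filter; and up to 4 called genes per pathway list. Some genes of the pathway lists are not reported here. Other members were named after their values were seen. Near-identical copies were sought as shared 31-base words between transcripts. The offset for length and GC content was a spline (5 degrees of freedom) fitted per library. Alternatives were DESeq2 1.42.0, other scalings, no filter, length-scaled TPM counts, protein-coding genes or transcripts alone, no mitochondrially encoded genes, the offset, the replicate number as a block, 1 fit of all libraries, and leaving out each library. Scripts were tested on simulated data. The common biological coefficient of variation of the edgeR fits came to 0.241 for ECs and 0.149 for hearts.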

Additional observations from a re-analysis of the deposited data

Results flagged for a closer look

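The genotype effect differed between hearts and ECs, by the interaction test of edgeR, in 21 members. Of the 15938 genes tested, 16.2% were called higher and 12.7% lower. The log2 interaction (heart minus EC) was 1.35 for Psmd8, 1.03 for Psmb3, 1.01 for Psmb5, 0.99 for Psma7, 0.93 for Psmb6, 0.86 for Psmd4, 0.77 for Psmc4, 0.69 for Psmd3, 0.67 for Psmb2, 0.66 for Psmb1, 0.64 for Psma2, 0.64 for Psmc3, 0.60 for Psma6, 0.58 for Psmd9, 0.52 for Psmb4, 0.50 for Psmb7, 0.47 for Psma5, 0.45 for Psmd7, 0.44 for Psmc5, 0.44 for Psmd11 and -1.97 for Psma8. Of these, 4 were also called with the length and GC offset, at 1.35 for Psma2, 0.75 for Psmb1, 0.91 for Psmd8 and -1.99 for Psma8. With that offset 6 of the 40 members were called higher and 1 lower, near the shares of all genes (13.2% higher and 8.31% lower).

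Single heart WT libraries stood apart from the other 3 for 4 of the 40 members screened, where chance gives about 1 group in 20: Psmc3ip at 2.17 CPM, Psmc6 at 77.0, Psmd13 at 45.3 and Psmd3 at 76.1. The library was heart WT 3 for Psmc3ip and Psmd3 and heart WT 2 for Psmc6 and Psmd13.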

How the results depend on the processing

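In ECs, 0 members were called higher under every alternative, and the 1 called lower became 4 with DESeq2, 2 with length-scaled TPM counts, 4 with the length and GC offset, 5 in 1 fit of all 13 libraries, 0 without EC KO 2 and 3 (chosen after seeing the data) and 0 to 3 without 1 library at a time. In hearts, the 23 called higher became 7 with the offset, 7 with the offset and without heart WT 1 (chosen after seeing the data) and 13 to 27 without 1 library at a time. The 20 interactions became 12 with upper-quartile scaling, 6 with the offset and 10 to 26 without 1 library (10 without EC KO 3, 12 without heart KO 1, 13 without EC WT 2, heart WT 1 or heart KO 2), and the negative one (Psma8) became 0 with length-scaled TPM counts or protein-coding transcripts alone and 0 to 1 without 1 library. Between WT tissues, the 16 higher became 26 and the 6 lower 3 with the offset, the 6 lower became 11 with upper-quartile scaling, and both were 13 to 16 and 6 to 7 without 1 library. The immunoproteasome share was 20.6%, 25.8%, 8.90% and 10.1% (EC WT, EC KO, heart WT, heart KO) from protein-coding transcripts alone, 38.4% in EC KO and 14.2% in heart WT from CPM, and 26.6% to 31.9%, 29.7% to 34.2%, 11.9% to 13% and 13.3% to 15.4% without 1 library. The cause of these shifts was not tested. Depth limits Psma8, Psmb11 and Psmc3ip, at a few CPM or fewer.

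With the replicate number as a block, 12 members were higher in hearts and 0 were lower in the interaction. Same-numbered WT and KO libraries of a tissue deviated together only weakly (correlations 0.04 to 0.18 in ECs and -0.033 to 0.077 in hearts), so the numbers were not taken as pairs of WT with KO. Same-numbered EC and heart libraries were not compared in this way. Without the block, the interaction and the comparison of WT tissues treated all libraries as independent. With both the block and the offset, 4 were lower in ECs, 3 higher in hearts, 6 higher and 0 lower in the interaction, and 25 higher and 3 lower between WT tissues.

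With the offset the direction turned in 8 of 40 members in ECs, 5 of 39 in hearts, 7 of 40 in the interaction and 12 of 40 between WT tissues, of which 1, 0, 1 and 6 were then called. Psmc6 moved furthest, to -1.10 in ECs (-1.10 with the block added) and 1.13 in the interaction (1.1), and was at -0.039 in ECs with length-scaled TPM counts. In ECs, with the offset (and with the block added) Psmb5 was at 0.12 (0.13) and Psmb6 at 0.0063 (0.0088), and Psmb10 was at -0.076 with length-scaled TPM counts. Without 1 library at a time, Psmb7 ranged from -0.25 to 0.00095 (without EC WT 2), Psmb8 from -0.20 to 0.19, Psmb9 from -0.15 to 0.44 and Psmb10 from -0.075 to 0.36, each of the last 3 lowest without EC KO 2, and Psmb8 was at -0.17 without EC WT 1. Without EC KO 2 and 3, Psmb8 and Psmb9 were at -0.15 and -0.13. Psmd14 in ECs ranged from -0.19 to 0.026 without 1 library and Psmc6 from 0.016 to 0.12. In hearts, Psmb9 was at -0.021 with offset and block. Psmd1 there was at 0.071 with the offset, 0.072 with the block added, 0.076 with the offset and without heart WT 1, and -0.063 to 0.0094 without 1 library. Psmd2 was at -0.0012 with upper-quartile scaling, -0.014 with length-scaled TPM counts, -0.021 from protein-coding transcripts alone, -0.017 with the block, -0.0084 with block and offset, and -0.049 to 0.073 without 1 library. In the interaction, with the offset (and with the block added), Psmb4 was at -0.059 (-0.062), Psmb8 at -0.066 (-0.14), Psmb9 at -0.21 (-0.31) and Psmb10 at -0.086 (-0.092). Between WT tissues the values were 0.60 (0.54) for Psma7, 0.61 (0.61) for Psmb4, 0.085 (0.090) for Psma5, 0.21 (0.16) for Psmb3, 0.66 (0.68) for Psmb6 and 0.25 (0.28) for Psmb10. Psmb6 was also at 0.015 with length-scaled TPM counts and at -0.047 to 0.027 without 1 library, Psma7 was at -0.14 to 0.023 without 1 library, Psmb4 was at 0.014 with length-scaled TPM counts, 0.024 from protein-coding transcripts alone and -0.028 to 0.044 without 1 library, Psma3 was at 0.064 from protein-coding transcripts alone, and the median of members was at -0.11 with upper-quartile scaling, -0.018 with no filter and -0.014 to 0.14 without 1 library.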
